A study of Mus musculus with 10 samples.

Results

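The 76 genes described here encode the proteins of the mitochondrial ribosome (mitoribosome) and were chosen by name alone, as rows of the deposited table whose symbol is Mrpl or Mrps followed by a number and, in a few cases, the letter a or b. They make up 76 of the 20270 genes in the table. All 76 passed the filter on low values, which required a log2 CPM (counts scaled to a common library total, on a log2 scale) above 0 in at least 2 libraries and left 15143 genes. Of the 76, 50 encode proteins of the large subunit and 25 proteins of the small subunit. The remaining gene, Mrps36, encodes a component of the 2-oxoglutarate dehydrogenase complex despite its name, and Mrps30 and Mrps18a encode large subunit proteins despite their small subunit names.

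The libraries hold RNA of hematopoietic stem cells (HSCs), from which all blood cells descend, sorted from C57BL/6 recipient mice after transplantation of lineage-depleted marrow from Id1-/- (KO) or Id1+/+ (WT) donors. Id1 encodes an inhibitor of basic helix-loop-helix transcription factors. There are 4 groups: KO normal (3 libraries), WT normal (3), KO stressed (2) and WT stressed (2), and the HSCs of all 4 groups, normal ones included, had passed through transplantation. The labels do not define normal and stressed, the time since transplantation is 4 weeks in the sample labels and 6 in the series design, and the labels do not say whether libraries come from separate animals or pools. The p-values below therefore measure the spread between these libraries, which may be technical.

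The mitoribosome translates the few messages encoded by mitochondrial DNA (mtDNA), all of which specify subunits of the oxidative phosphorylation complexes. Its ribosomal RNAs are encoded by mtDNA, whereas all of its proteins are encoded in the nucleus, made on cytosolic ribosomes and imported. Some of these proteins have bacterial homologs, and others are specific to mitochondria and were added during the evolution of the organelle. Quiescent HSCs are known for a low reliance on oxidative phosphorylation, and differentiation is accompanied by an increase in it.

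The targeted gene did not follow the labels. Id1 was at 13.2, 10.6 and 9.62 CPM in the KO-labelled normal libraries and at 1.35, 1.72 and 3.17 CPM in the WT-labelled ones. In stressed HSCs it was at 9.06 and 8.44 CPM in the KO-labelled and at 1.28 and 4.39 CPM in the WT-labelled libraries. The difference in normal HSCs was 2.50 (log2, limma, SE 0.45, adjusted p = 0.018), higher in the KO-labelled libraries. The call was lost without a trend in the variance (adjusted p = 0.11), with the trend on gene length removed (0.051) and in 4 of 10 fits that left out 1 library (without the KO-labelled normal library A or C, or the WT-labelled normal library A or B), while the difference was 2.24 or more in these fits. Where in Id1 these reads lie cannot be seen in a table of counts per gene. Genotypes are given below as labelled, and the direction of every comparison of genotypes rests on those labels. Id1 lies on chromosome 2, and none of the 4 members on that chromosome is within 5000000 bases of it.

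Depth estimated from the deposited values was 25700000 to 33000000 reads per library. These values share nearly the same distribution in all libraries, so the estimates do not give each library's own depth. All 12 HSC markers were detected in every group, with summed levels of 4596 to 4963 CPM in KO-labelled normal, 5427 to 5730 in WT-labelled normal, 4027 to 4119 in KO-labelled stressed and 4341 to 4485 in WT-labelled stressed HSCs. Granulocyte and monocyte markers (10 of 10 in the table) summed to 435 to 478 CPM in KO-labelled normal against 341 to 381 in WT-labelled normal libraries. Megakaryocyte markers (6 of 6) summed to 1065 to 1161 CPM in stressed and 606 to 702 in normal HSCs. Erythroid markers (9 of 9) summed to 200 to 235 CPM in normal, 158 to 174 in KO-labelled stressed and 111 to 122 in WT-labelled stressed libraries, and multipotent progenitor markers (5 of 5) to 405 to 438 CPM in normal and 490 to 544 in stressed ones. B and plasma cell markers (7 of 8) summed to 203 to 205 CPM in KO-labelled stressed libraries and to 40.1 to 53.5 elsewhere. The part of these marker differences in the results below was not tested. In bulk RNA, fewer cells of a type and less RNA per cell cannot be told apart. In a principal component analysis of all genes tested, the KO-labelled normal library A stood apart from the others on the third component and the WT-labelled stressed libraries from each other on others, and the counts and medians of the comparisons that use these libraries are given with and without them.

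Several promoters of these genes are shown because most members lay on the same side of 0 in the comparison of normal HSCs, and because factors that bind such promoters are themselves in the table. The genes are the member called in any comparison (Mrpl42) and some of the members with the smallest p-values in a comparison. Mrpl50 had the smallest p between genotypes in stressed HSCs, and Mrps22 between conditions in KO-labelled HSCs. Both had a window but are not shown. Each sequence runs 5′ to 3′ on the gene's strand from 250 bases before to 30 bases after the start of the RefSeq transcript (GRCm38.p6). Capitals mark letters that match the binding motif of NRF1 (GCGCA, any base, then GCGC), ETS factors such as GABP (CCGGAAG) or YY1 (AAGATGGC, whose reverse complement is GCCATCTT). These are known regulators of nuclear genes for mitochondrial proteins.
Mrpl42, chr10:95501920-95502199, minus strand: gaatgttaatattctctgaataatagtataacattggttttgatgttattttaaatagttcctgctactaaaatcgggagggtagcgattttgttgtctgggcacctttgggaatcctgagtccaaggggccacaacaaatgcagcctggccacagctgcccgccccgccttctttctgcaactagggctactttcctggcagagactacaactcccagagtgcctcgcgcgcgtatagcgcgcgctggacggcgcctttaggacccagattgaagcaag
Mrpl32, chr13:14613008-14613287, minus strand: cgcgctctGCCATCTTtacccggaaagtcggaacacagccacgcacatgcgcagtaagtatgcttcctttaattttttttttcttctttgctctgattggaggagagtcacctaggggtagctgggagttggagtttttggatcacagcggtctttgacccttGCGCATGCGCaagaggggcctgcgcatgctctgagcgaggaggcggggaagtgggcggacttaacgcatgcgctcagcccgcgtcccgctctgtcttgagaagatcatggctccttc
Mrpl34, chr8:71464676-71464955, plus strand: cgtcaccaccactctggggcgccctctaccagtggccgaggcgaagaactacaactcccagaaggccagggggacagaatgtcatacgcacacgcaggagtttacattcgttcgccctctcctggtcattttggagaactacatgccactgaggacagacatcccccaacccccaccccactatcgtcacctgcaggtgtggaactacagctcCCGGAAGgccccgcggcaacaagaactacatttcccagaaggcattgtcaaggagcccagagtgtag
Mrpl18, chr17:12916062-12916341, minus strand: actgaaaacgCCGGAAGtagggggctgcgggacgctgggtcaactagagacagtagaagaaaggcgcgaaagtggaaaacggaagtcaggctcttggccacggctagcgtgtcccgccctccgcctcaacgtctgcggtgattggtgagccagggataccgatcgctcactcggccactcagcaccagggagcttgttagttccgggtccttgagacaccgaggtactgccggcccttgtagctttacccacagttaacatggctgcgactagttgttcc
Mrps14, chr1:160194965-160195244, plus strand: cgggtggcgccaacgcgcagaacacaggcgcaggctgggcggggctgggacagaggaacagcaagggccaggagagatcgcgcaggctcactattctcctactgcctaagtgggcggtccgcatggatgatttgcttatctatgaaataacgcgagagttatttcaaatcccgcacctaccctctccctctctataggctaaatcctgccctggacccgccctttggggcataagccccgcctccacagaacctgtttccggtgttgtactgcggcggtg

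The Mrpl32 promoter holds the NRF1 motif, which reads alike on both strands, 87 bases before the start and the YY1 motif on the reverse strand 242 bases before it. The ETS motif lies 37 bases before the start in Mrpl34 and 240 bases before it in Mrpl18. Mrps14 held none of the 3 motifs, and the only match of Mrpl42, to YY1, ends beyond the stretch shown and is not marked. RefSeq windows of 250 bases before to 50 bases after the start were matched by symbol for 67 of the 76 genes, with 73 windows in all. Searched on both strands, the NRF1 motif was in 17.8% of these windows (13 of 73) and in 4.60% of all 32851 windows of the same length. The ETS motif was in 32.9% (24 windows) against 8.86%, and the YY1 motif in 16.4% (12 windows) against 2.75%. A match to ETS can overlap one to YY1, since CCGGAAG ends in the 3 letters that begin AAGATGGC. Of the 67 genes, 41 held at least 1 of the motifs and 26 held none. The median difference between genotypes in normal HSCs was 0.24 for the 13 genes with and 0.18 for the 54 without the NRF1 motif, 0.22 and 0.19 for ETS (24 and 43 genes), and 0.18 and 0.20 for YY1 (12 and 55 genes). A match describes letters only and shows no binding, and genes that lack a match may still be bound.

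Levels of the 76 genes spanned less than a factor of 10 in these libraries. The lowest value in any library was 14.3 CPM (Mrps36 in the WT-labelled normal library A) and the highest 124 CPM (Mrps14 in the KO-labelled normal library A), and the median over genes of the mean level was 55.8 CPM. With the depth estimates above, these levels correspond to 428 to 3880 reads per gene and library, which are not the libraries' own counts. Their coding sequences are short, from 195 to 1326 bases with a median of 594.

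Levels per kilobase depend on which transcripts define the exonic length. With the exons of GENCODE's basic transcripts, the set used for exonic lengths here unless stated, the most abundant were Mrpl42 at 156 CPM per kb, Mrpl33 at 120 and Mrpl34 at 101, all from the large subunit, with lengths of 679, 478 and 607 bases. With the exons of all annotated transcripts, a choice made after seeing the data, Mrpl34 kept its length and was the highest of the 76. Mrpl42 (3682 bases) was then at 28.8 CPM per kb and Mrpl33 (7326 bases) at 7.86, places 31 and 70 among the 76. The high levels of these 2 genes per length thus hold for the basic transcripts only.

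The least abundant per kilobase of basic exons were Mrps25 at 7.05 CPM per kb, Mrpl47 at 7.16 and Mrpl1, the homolog of the bacterial stalk protein, at 8.03. With all transcripts they were at 6.51, 5.45 and 8.03 CPM per kb and were still among the 8 lowest.

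Reads that fall where genes overlap are uncertain, since the strandedness of the counting is not given in the sources used here. Among the 76 genes, 31 share exonic bases with another annotated gene and 16 share at least 10% of their exonic length, counted here over all annotated transcripts. The largest share was that of Mrps25 with Nr2c2 on the opposite strand, 4590 of 6576 bases (69.8%). Next were those of Mrps34 with Mapk8ip3 on the opposite strand (63.4%) and with Nme3 on the same strand (37.0%). They were followed by Mrpl19 with Gcfc2 (36.0%), Mrpl43 with Twnk, the mtDNA helicase gene (33.4%), and Mrps18b with an antisense transcript (30.5%). Mrpl46 and Mrps11 lie head to head on opposite strands of chromosome 7 and share 173 exonic bases with each other. Rows for 3 pseudogenes with Mrpl or Mrps names were at 1.96 CPM or less in every library.

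The genes varied little between libraries of a group. The median SD over genes was 0.12 (log2) in KO-labelled normal, 0.10 in WT-labelled normal, 0.07 in KO-labelled stressed and 0.10 in WT-labelled stressed HSCs, against 0.21, 0.17, 0.15 and 0.16 over all genes tested. The smallest pooled SDs within groups were those of Mrpl42 (0.050), Mrpl19 (0.060) and Mrpl15 (0.069). The largest were those of Mrps31 (0.28), Mrpl46 (0.24) and Mrpl1 (0.23). Mrps31, a small subunit protein gene specific to mitochondria, ranged from 20.4 to 34.7 CPM within the WT-labelled normal libraries, and the values of all 10 libraries lay between these.

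The summed level of the 76 genes was lowest in WT-labelled normal HSCs. In order of their letters, it was 3990, 3939 and 4026 CPM in the WT-labelled and 4719, 4339 and 4581 CPM in the KO-labelled libraries of the normal condition. In stressed HSCs it was 4555 and 4480 CPM in the KO-labelled and 4420 and 4308 CPM in the WT-labelled libraries. The 3 WT-labelled normal libraries lay below all 7 others, and the other 3 groups overlapped in part, with the WT-labelled stressed library A above the KO-labelled normal library B. As means, these sums were 4546 ± 192 CPM (SD, n = 3) for KO-labelled normal, 3985 ± 43.4 (n = 3) for WT-labelled normal, 4518 ± 53.3 (n = 2) for KO-labelled stressed and 4364 ± 79.0 (n = 2) for WT-labelled stressed HSCs.

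**Figure D1:**
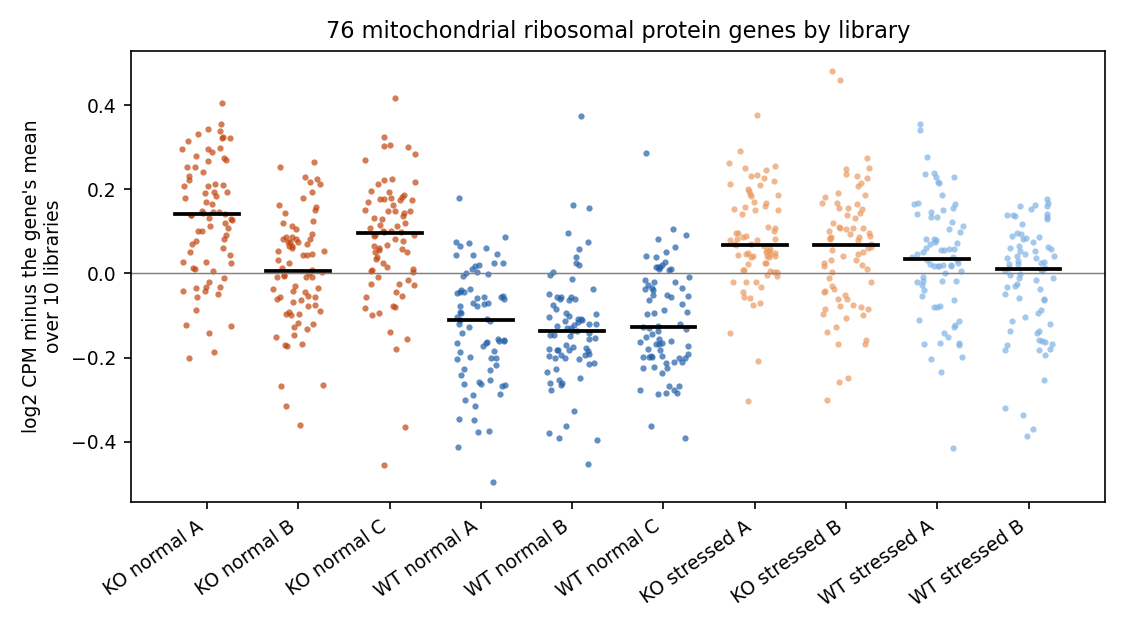
Log2 CPM of each of the 76 genes minus that gene's mean over the 10 libraries (vertical axis), by library (horizontal axis), with 1 point per gene and a black line at the median of each library. The medians of the 3 WT-labelled normal libraries lie between -0.14 and -0.11, and those of the 7 other libraries between 0.01 and 0.14.

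Gene by gene, the lowest of the 4 group means was that of WT-labelled normal HSCs for 57 of the 76 genes, against 25.7% of all genes tested. It was that of WT-labelled stressed HSCs for 11, of KO-labelled stressed for 6 and of KO-labelled normal for 2. The highest group mean was that of KO-labelled normal HSCs for 33 genes, of KO-labelled stressed for 30, of WT-labelled stressed for 13 and of WT-labelled normal for 0. Within libraries, the KO-labelled normal library B stood closest to the WT-labelled ones of that condition, with a median deviation of 0.01 against 0.14 and 0.09 in libraries A and C.

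The comparison of genotypes in normal HSCs asks whether Id1 status goes with these transcripts outside the stressed condition. Of the 76 genes, 73 had a higher mean in KO-labelled than in WT-labelled normal HSCs (48.5% of all genes tested did), and the median difference was 0.19 (log2, middle 50% of genes from 0.11 to 0.29) against -0.01 over all genes tested. No gene of the 76 passed limma's test at an adjusted p under 0.05, where 1.56% of all genes tested did. At an unadjusted p under 0.05, 23 were higher and 0 lower, against 7.49% higher and 6.39% lower over all genes tested. In 33 genes every KO-labelled library lay above every WT-labelled one (10.9% of all genes tested) and in 0 genes below (8.64%). Levels were thus higher by small amounts in many members, and no individual member was established as changed.

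Without the KO-labelled normal library A, 68 of the 76 differences were above 0, the median was 0.16, and the 2 and 3 libraries left did not overlap in 35 genes that were higher (15.8% of all genes tested in that fit) and in 0 that were lower (14.1%).

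**Figure D2:**
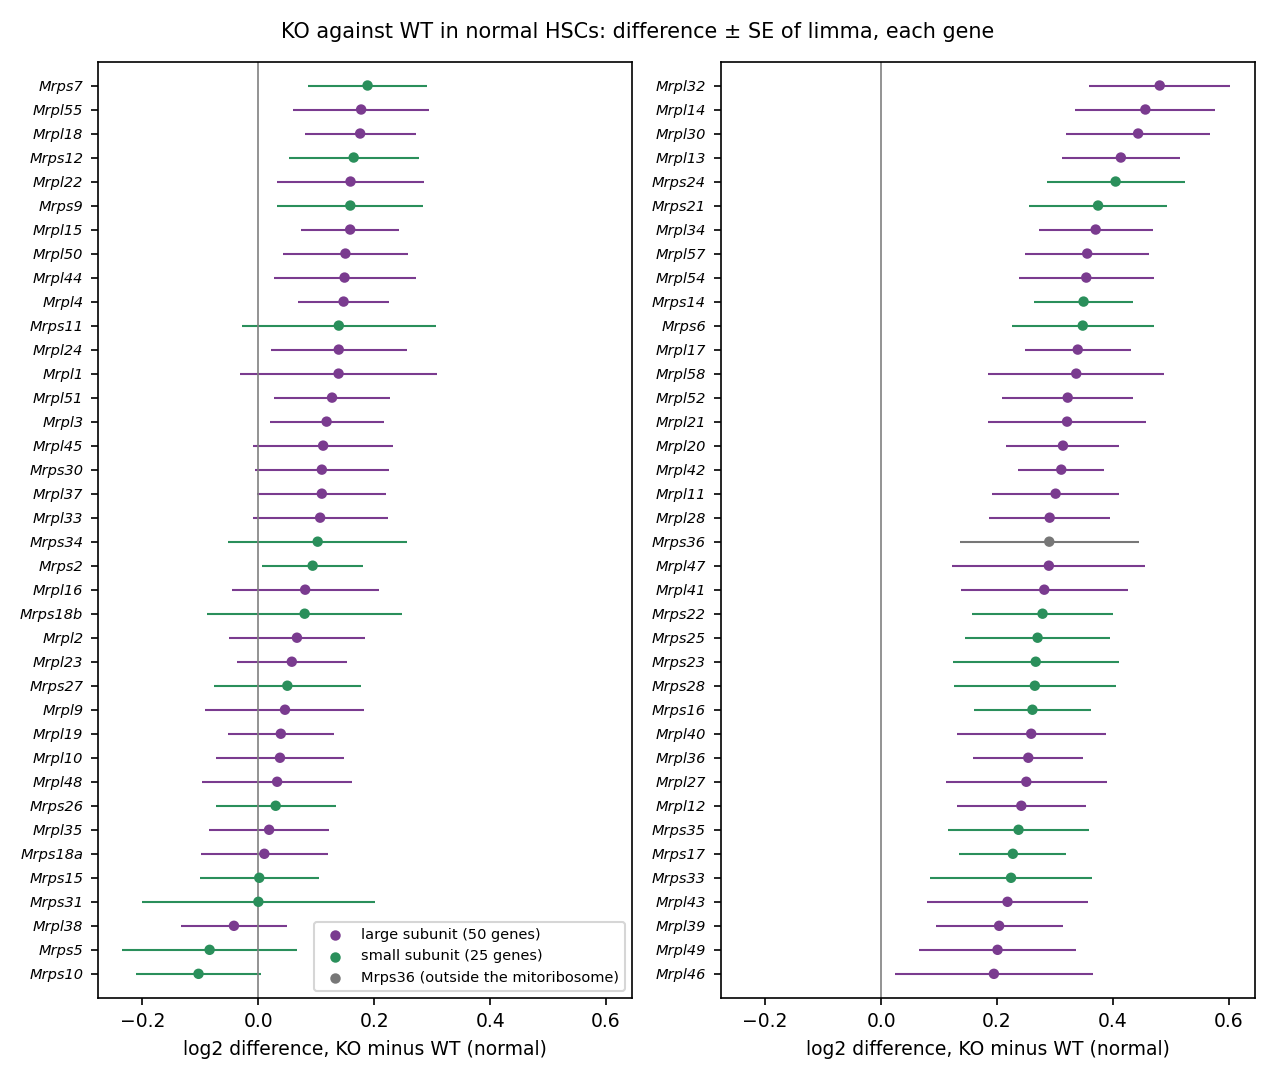
Log2 difference, KO-labelled minus WT-labelled in normal HSCs (horizontal axis) for each of the 76 genes, ordered by the difference, with bars for the SE of limma and colours for the subunit. The points run from -0.10 (Mrps10) to 0.48 (Mrpl32), and only those of Mrps10, Mrps5 and Mrpl38 lie below 0.

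Among proteins of the large subunit with bacterial homologs, all 30 differences were above 0, with a median of 0.18, and 11 had an unadjusted p under 0.05. Mrpl32 encodes a large subunit protein whose maturation requires cleavage by the m-AAA protease of the inner membrane. It was at 43.1, 41.7 and 44.6 CPM in the KO-labelled and at 27.5, 32.2 and 33.4 CPM in the WT-labelled normal libraries. The groups were apart, and the difference of 0.48 (SE 0.12, 1.40-fold) was the largest of the 76, with an adjusted p of 0.091. Mrpl13, on chromosome 15 (55534094 to 55557748), was at 90.7, 75.6 and 78.9 against 55.5, 64.7 and 63.6 CPM. Its groups were also apart, with a difference of 0.41 (SE 0.10, adjusted p = 0.080). Mrpl14 and Mrpl30 followed at 0.46 and 0.44 (unadjusted p = 0.0030 and 0.0042).

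Mrpl34, the homolog of a small arginine-rich bacterial protein, was at 66.7, 64.7 and 75.5 CPM in KO-labelled and at 53.1, 53.3 and 53.3 CPM in WT-labelled normal HSCs. The groups were apart by 0.37 on average (SE 0.10, adjusted p = 0.11). Mrpl12 encodes the stalk protein that in bacteria recruits translation factors, and was at 75.0, 58.7 and 57.8 against 53.3, 54.2 and 53.3 CPM. The groups were apart, but the KO-labelled library A alone was far above the rest, and the difference was 0.24 (SE 0.11, adjusted p = 0.37). At the other end, Mrpl19 (0.04) and Mrpl35 (0.02) hardly differed between the genotypes.

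Among the 20 large subunit proteins specific to mitochondria, 19 differences were above 0 (median 0.20) and 5 had an unadjusted p under 0.05. Mrpl42 was at 106, 109 and 117 CPM in the KO-labelled and at 88.0, 92.0 and 87.4 CPM in the WT-labelled normal libraries. The difference of 0.31 (SE 0.07, 1.24-fold) had the smallest p of the 76 genes, at an adjusted p of 0.070. Mrpl57, Mrpl54, Mrpl52 and Mrpl58 were the others at an unadjusted p under 0.05, with differences of 0.36, 0.35, 0.32 and 0.34. Mrpl58 encodes a peptidyl-tRNA hydrolase that is built into the mitoribosome and can release stalled chains. The large subunit members with small subunit names did not stand out: Mrps30 had a difference of 0.11 (adjusted p = 0.74) and Mrps18a of 0.01 (adjusted p = 0.98).

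Among small subunit proteins with bacterial homologs, 13 of 15 differences were above 0 (median 0.19), and 6 had an unadjusted p under 0.05. Mrps14, on chromosome 1 (160195215 to 160202170), was at 124, 108 and 105 CPM in KO-labelled and at 83.7, 90.6 and 89.0 CPM in WT-labelled normal HSCs. Its groups were apart, with a difference of 0.35 (SE 0.09, adjusted p = 0.076). Mrps24 (0.40), Mrps21 (0.37), Mrps6 (0.35), Mrps16 (0.26) and Mrps17 (0.23) were the others. Mrps12 encodes the homolog of the bacterial decoding-site protein in which streptomycin resistance arises. It was at 55.2, 49.8 and 52.8 against 47.3, 45.8 and 47.5 CPM, a difference of 0.16 (SE 0.11, adjusted p = 0.57).

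Small subunit proteins specific to mitochondria had 10 of 10 differences above 0, although that of Mrps31 was 0.00, and a median of 0.16. Only Mrps22, a gene in which mutations cause mitochondrial disease in people, had an unadjusted p under 0.05, with 31.1, 31.9 and 31.8 CPM against 26.4, 23.2 and 28.9 CPM and a difference of 0.28 (adjusted p = 0.34). Mrps18b, which has paralogs in Mrps18a and Mrps18c, had a difference of 0.08 (adjusted p = 0.89). Mrps36, the member outside the mitoribosome, was at 19.2, 19.6 and 15.5 against 14.3, 15.1 and 14.9 CPM, a difference of 0.29 (SE 0.15, adjusted p = 0.44).

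Short genes lay higher in KO-labelled normal HSCs whether or not they encode mitoribosomal proteins. Among all other genes tested, the median difference was 0.19 for 1349 genes with an exonic length under 1 kb, 0.08 for 2929 genes of 1 to 2 kb, -0.01 for 5668 genes of 2 to 4 kb and -0.08 for 5087 genes over 4 kb. The mitoribosomal genes of the same classes had medians of 0.30 (20 genes), 0.17 (30), 0.20 (15) and 0.14 (11). In each class the median of the mitoribosomal genes was above that of the other genes. Across the 76 genes, Spearman's rho between coding length and the difference was -0.56, as a description over genes that share the same 6 libraries. With lengths over all annotated transcripts, a choice made after seeing the data, the medians of the other genes were 0.18, 0.12, 0.03 and -0.06 and those of the mitoribosomal genes 0.32 (8 genes), 0.22 (21), 0.15 (25) and 0.12 (22).

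With the trend of the difference on exonic length removed from each library, 59 of the 76 differences in normal HSCs were above 0 and the median fell to 0.10. The libraries did not overlap in 19 genes that were higher and 2 that were lower, against 9.09% and 8.49% of all genes tested in that fit. Of the 38 genes with shorter coding sequences the median difference was 0.27 without that correction, and of the 38 with longer ones 0.11.

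**Figure D3:**
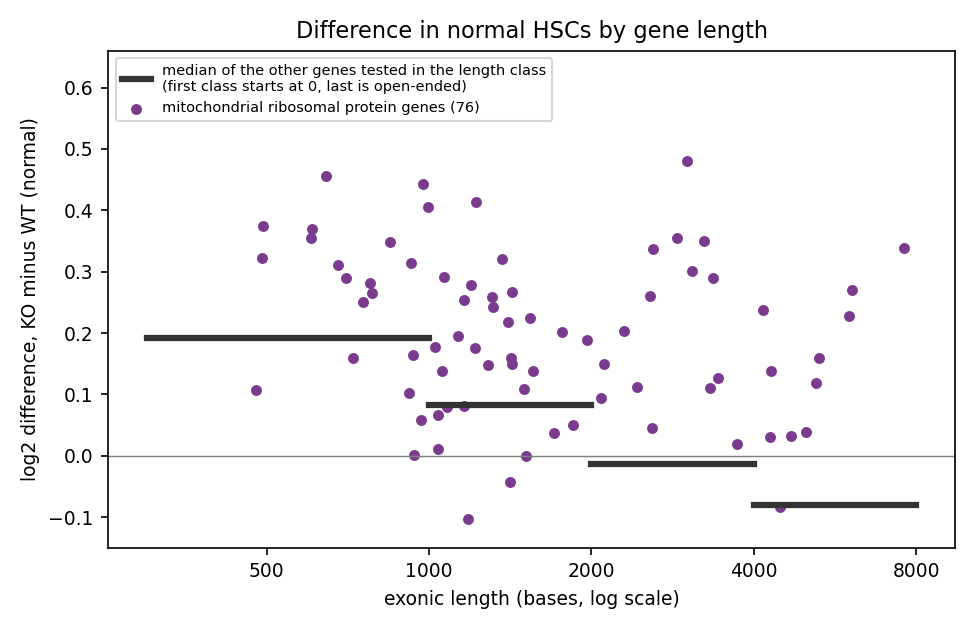
Log2 difference, KO-labelled minus WT-labelled in normal HSCs (vertical axis) against exonic length (horizontal axis, log scale) for the 76 mitoribosomal genes (points), with the median of all other genes tested in 4 length classes (black lines). The black lines step down from 0.19 to -0.08, and the medians of the points in the same classes are 0.30, 0.17, 0.20 and 0.14.

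In stressed HSCs the median difference between genotypes was 0.06 against 0.00 over all genes tested, 56 of the 76 differences were above 0 (49.9% of all genes tested), and no member was called (0.145% of all genes tested were). At an unadjusted p under 0.05, 3 were higher (background 4.41%) and 0 lower (4.46%). With 2 libraries per genotype, 26 genes were apart and higher (19.2% of all genes tested) and 8 apart and lower (19.9%). Without the WT-labelled stressed library A, 54 differences were above 0 (median 0.07), with 44 genes apart and higher (34.9% of all genes tested) and 15 apart and lower (35.5%). Without library B, 46 were above 0 (median 0.05), with 37 apart and higher (34.7%) and 23 apart and lower (35.8%). Whether the genotypes differ by another amount in stressed than in normal HSCs is the interaction tested below.

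The members with the smallest p in stressed HSCs were not those of normal HSCs, apart from Mrpl32. Mrpl50, a large subunit protein gene specific to mitochondria, was at 78.7 and 72.9 CPM in KO-labelled and at 50.7 and 59.6 CPM in WT-labelled stressed libraries. The difference was 0.46 (SE 0.13, 1.38-fold, adjusted p = 0.31). The WT-labelled stressed library A had the lowest value of all 10, and library B was level with the WT-labelled normal library A at 59.5 CPM. Mrps22 was at 41.2 and 43.6 against 32.4 and 31.9 CPM, a difference of 0.40 (SE 0.15, adjusted p = 0.47). Mrpl32 was at 37.4 and 39.6 against 32.6 and 28.5 CPM, a difference of 0.34 (SE 0.15, adjusted p = 0.54). Mrps35, a small subunit protein gene, was at 52.7 and 50.3 against 43.1 and 40.2 CPM, a difference of 0.31 (adjusted p = 0.59).

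Among roles, the small subunit proteins specific to mitochondria had a median of 0.15 in stressed HSCs, with 8 of 10 differences above 0. The large subunit proteins with bacterial homologs had 0.05 (21 of 30), those specific to mitochondria 0.04 (13 of 20), and the small subunit proteins with bacterial homologs 0.06 (13 of 15). Some large subunit genes lay lower in KO-labelled stressed HSCs. Mrpl43 was at 49.8 and 41.1 CPM against 54.7 and 55.7 CPM (-0.29, SE 0.17, adjusted p = 0.68), and Mrpl44, which encodes a protein with a ribonuclease III fold, at 55.2 and 65.3 against 72.0 and 71.1 CPM (-0.25, adjusted p = 0.68).

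The stressed and normal conditions were then compared within each genotype. In WT-labelled HSCs, 63 of the 76 genes had a higher mean in stressed than in normal libraries (51.1% of all genes tested did), with a median difference of 0.16 against 0.01 over all genes tested. This comparison shares the 3 WT-labelled normal libraries with that of genotypes in normal HSCs, so the 2 sets of differences are not independent. The shifts were again small: 1 gene was called, against 3.3% of all genes tested, 10 were higher at an unadjusted p under 0.05 (7.98%) and 1 was lower (8.84%). In 32 genes the libraries were apart with stressed higher (19.7% of all genes tested), and in 1, Mrps27, apart with stressed lower (16.7%). Without the WT-labelled stressed library A, 55 were above 0 (median 0.15), with 43 genes apart and higher (32.7% of all genes tested) and 10 apart and lower (29.8%). Without library B, 65 were above 0 (median 0.15), with 49 apart and higher (33.6%) and 7 apart and lower (30.1%).

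The gene that rose was Mrpl42, on chromosome 10 (95480805 to 95501940, minus strand). It was at 115 and 112 CPM in the WT-labelled stressed and at 88.0, 92.0 and 87.4 CPM in the WT-labelled normal libraries. The groups were far apart relative to their spread, with means of 6.82 ± 0.02 (SD, n = 2) and 6.48 ± 0.04 (n = 3) log2 CPM. The difference was 0.35 (limma, SE 0.08, 1.27-fold, adjusted p = 0.046). The call was close to the threshold, and the adjusted p rose above 0.05 in 9 of the 10 fits that left out 1 library, up to 0.21 without the WT-labelled stressed library A. With the length trend removed the difference was 0.14 (adjusted p = 0.47).

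Mrpl18 encodes the homolog of the bacterial protein that binds the smallest ribosomal RNA of the large subunit. It was at 90.6 and 89.1 CPM in the stressed and at 72.3, 61.7 and 74.0 CPM in the normal libraries of that genotype, a difference of 0.38 (SE 0.11, adjusted p = 0.088). It was the largest of the 76 in this comparison. Mrpl30 was at 61.1 and 55.3 against 39.0, 47.9 and 50.2 CPM (0.36, SE 0.14, adjusted p = 0.22), and Mrps18a at 78.3 and 63.6 against 56.8, 57.1 and 59.1 CPM (0.29, SE 0.12, adjusted p = 0.25). Mrpl50 went the other way, with a difference of -0.27 (SE 0.12, adjusted p = 0.29) and libraries that overlapped.

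Length moved with this comparison as well. The other genes tested had medians of 0.17, 0.10, 0.00 and -0.07 from the shortest to the longest class, and the mitoribosomal genes 0.18, 0.18, 0.13 and 0.13. With the length trend removed the median of the 76 genes was 0.05, 49 of them lay above 0, and no member was called.

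In KO-labelled HSCs the 76 genes showed no common direction between conditions. The median difference was -0.01 (0.00 over all genes tested), 37 lay above 0 (50.1% of all genes tested did) and 39 below, and no gene was called where 4.5% of all genes tested were. The libraries were apart in 8 genes with stressed higher (16.5% of all genes tested) and in 13 with stressed lower (16.6%), and 2 genes were higher at an unadjusted p under 0.05 (8.41%) and 0 lower (9.48%). Without the KO-labelled normal library A, 41 lay above 0 (median 0.01), with 19 genes apart and higher (23% of all genes tested) and 14 apart and lower (23.3%). Mrps22 had the largest difference, at 41.2 and 43.6 CPM in stressed against 31.1, 31.9 and 31.8 CPM in normal libraries (0.43, SE 0.14, 1.34-fold, adjusted p = 0.12). Its libraries were apart in all 4 pairwise comparisons of groups tested here, with KO-labelled above WT-labelled and stressed above normal.

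Mrpl18 was at 95.8 and 97.8 CPM in KO-labelled stressed against 82.4, 72.7 and 79.3 CPM in KO-labelled normal libraries (0.31, SE 0.11, adjusted p = 0.14). Mrpl19 was at 68.1 and 68.8 against 60.0, 58.2 and 59.5 CPM (0.21, SE 0.10, adjusted p = 0.32), and Mrpl44 at 55.2 and 65.3 against 75.3, 63.7 and 82.8 CPM (-0.29, SE 0.14, adjusted p = 0.30), with overlapping libraries. By role, the medians in KO-labelled HSCs were -0.04 and -0.02 for large subunit proteins with and without bacterial homologs, and -0.01 and 0.06 for those of the small subunit.

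The difference between the 2 changes, stressed minus normal in KO-labelled less the same in WT-labelled HSCs, was below 0 in 61 of the 76 genes, with a median of -0.13 (0.00 over all genes tested, of which 49.5% lay above 0). No member was called, where 0.0198% of all genes tested were, and 6 were lower at an unadjusted p under 0.05 (4.66%) and 0 higher (4.49%). The difference between the conditions was thus not shown to depend on the genotype for any individual member. All 4 groups enter this contrast, and the low level of the WT-labelled normal libraries enters it as well as the 2 comparisons above that use them.

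The smallest p-values were those of Mrpl34, Mrps14, Mrpl15 and Mrpl43. Mrpl34 was at 60.4 and 66.8 CPM in WT-labelled stressed and at 62.9 and 58.0 CPM in KO-labelled stressed libraries. Set against its normal levels given above, it lay higher in stressed than in normal HSCs by 0.26 in WT-labelled and lower by 0.19 in KO-labelled libraries, an interaction of -0.44 (SE 0.16, adjusted p = 0.42). For Mrps14 the interaction was -0.34 (SE 0.13, adjusted p = 0.48), with 97.1 and 101 CPM in WT-labelled stressed and 98.8 and 99.7 CPM in KO-labelled stressed libraries. Mrpl15 had -0.32 (SE 0.13, adjusted p = 0.51) and Mrpl43 -0.50 (SE 0.22, adjusted p = 0.53).

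By subunit, the large one had a median of -0.17 with 43 of 50 genes below 0, and the small one -0.10 with 17 of 25 below 0. The 10 small subunit proteins specific to mitochondria had a median of 0.00 with 5 on either side of 0. These are counts over genes of the same libraries, and the difference between roles was not tested. With the length trend removed the median of the 76 genes was -0.04, with 28 above 0. It was -0.12, with 19 above 0, without the KO-labelled normal library A. Without the WT-labelled stressed library A it was -0.11 (20 above 0), and without library B -0.15 (15 above 0).

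Other lists of genes were described from the same fit. Of all genes tested, 1.56% were called between genotypes in normal and 0.145% in stressed HSCs. Between conditions these shares were 3.3% in WT-labelled and 4.5% in KO-labelled HSCs, and 0.0198% were called in the interaction. At such shares a short list would hold few or no calls. Of the 6 measured mitoribosomal protein genes without an Mrp name of the chosen form, Dap3, Ptcd3, Chchd1, Aurkaip1, Gadd45gip1 and Mrps18c, 6 of 6 lay above 0 in the comparison of genotypes in normal HSCs, with a median of 0.21 and no call. Mrps18c, the paralog of Mrps18a and Mrps18b, had the largest difference (0.42, SE 0.15, adjusted p = 0.22). In stressed HSCs the median of these 6 was 0.03, and between conditions it was 0.08 in WT-labelled and -0.05 in KO-labelled HSCs.

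Factors that assemble the mitoribosome and modify its RNA (22 genes) had a median of 0.14 between genotypes in normal HSCs. Of these, 16 were above 0 and 0 were called, against 1.56% called of all genes tested. Mterf3 (0.38, adjusted p = 0.21) and Eral1, a GTPase that chaperones the small subunit RNA (0.30, adjusted p = 0.27), had the smallest p-values. Between conditions in KO-labelled HSCs, 1 of the 22 was called, Mettl15, higher by 0.92 (SE 0.23, adjusted p = 0.048). It encodes a methyltransferase of the small subunit RNA. Of all genes tested, 4.5% were called in that comparison, and 6 of the 22 lay above 0. In the remaining comparisons none of the 22 was called.

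Mitochondrial translation factors (15 genes) had a median of 0.08 between genotypes in normal HSCs, with none called in any comparison. Mrrf, the ribosome recycling factor gene, had the smallest p there (0.58, SE 0.15, adjusted p = 0.091), and lay lower in stressed than in normal KO-labelled HSCs (-0.60, SE 0.17, adjusted p = 0.071). Mitochondrial aminoacyl-tRNA synthetases and related genes (20 genes), which charge the tRNAs used by the mitoribosome, had a median of -0.01 in normal HSCs. Only Lars2, the leucine enzyme, was called, with a fall of 0.30 between conditions in KO-labelled HSCs (log2, SE 0.07, adjusted p = 0.044). Of all genes tested, 4.5% were called in that comparison. Genes for mitochondrial transcription and RNA processing (12 genes) had a median of 0.17 between genotypes in normal HSCs, with Tefm, the elongation factor gene, at 0.40 (adjusted p = 0.18), and none was called in any comparison.

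Regulators of nuclear genes for mitochondrial proteins (10 of 11 tested) did not lie higher in KO-labelled normal HSCs: 4 of 10 were above 0 and the median was -0.03. Myc had a difference of -0.19 (SE 0.05, adjusted p = 0.080) and Nrf1, which binds the first motif searched above, of -0.27 (SE 0.12, adjusted p = 0.34). The 1 call in this list was Mycn, which fell by 0.32 between conditions in KO-labelled HSCs (log2, SE 0.06, adjusted p = 0.010). Of all genes tested, 4.5% were called in that comparison.

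Lists that share the mitoribosome's location or its function were set beside it. Over all 15143 genes tested, 187 were called higher between genotypes in normal HSCs. Cytosolic ribosomal protein genes (79 tested) had a median difference of 0.41 there, with 66 called higher. Nuclear subunits of respiratory complex I (37) had a median of 0.30, with 5 called higher. In stressed HSCs these medians were 0.11 and 0.09, against 0.06 for the mitoribosomal genes. Between conditions they were 0.14 and 0.22 in WT-labelled and -0.16 and 0.01 in KO-labelled HSCs, where the mitoribosomal genes had 0.16 and -0.01. Between conditions in KO-labelled HSCs, 15 cytosolic ribosomal protein genes and 0 mitoribosomal genes were called lower, against 345 of all 15143 genes tested. The difference between lists was not tested, and the trend on gene length was not removed in it.

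**Figure D4:**
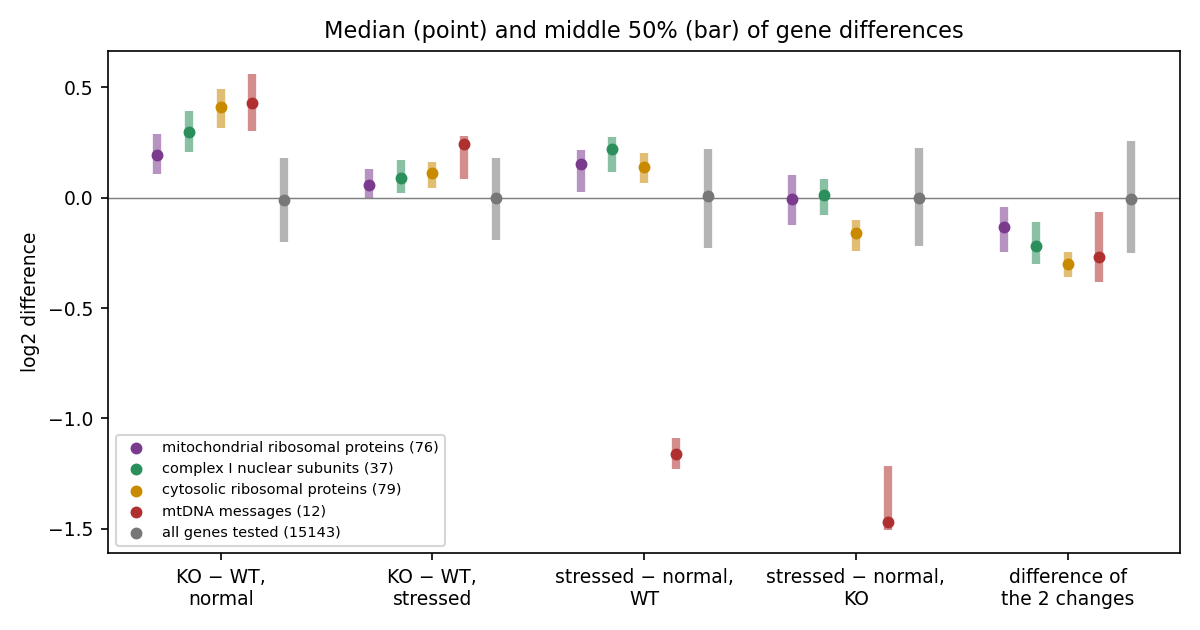
Median (points) and middle 50% (bars) of the log2 differences of genes in each list (vertical axis) for the 5 comparisons (horizontal axis), from the same limma fit. The mitoribosomal genes have medians of 0.19, 0.06, 0.16, -0.01 and -0.13 from left to right.

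The messages that the mitoribosome translates moved far more between conditions than the genes for its proteins. The 13 mtDNA messages in the table summed to 9871 to 10741 CPM in KO-labelled normal and to 7959 to 8415 CPM in WT-labelled libraries of that condition. In stressed HSCs they summed to 3761 to 3802 CPM in KO-labelled and 3585 to 3666 CPM in WT-labelled libraries. Of the 12 messages tested, 9 were called lower between conditions in WT-labelled HSCs (median -1.16) and 8 in KO-labelled HSCs (median -1.47). In KO-labelled against WT-labelled normal HSCs 6 were called higher (median 0.43). Over all 15143 genes tested these counts were 265, 345 and 187. Mt-Atp8 went the other way in KO-labelled HSCs, from 0.32 to 0.83 CPM in normal to 2.85 to 3.91 in stressed libraries. Mt-Atp6, mt-Atp8, mt-Co2, mt-Nd3 and mt-Nd4l were at 15.7 CPM or less in every library, so the sums rest on the other messages. The summed mitoribosomal genes of the stressed libraries lay at 4308 to 4555 CPM, within the range of 3939 to 4719 CPM of the normal ones. The ratio of the 2 sums was not tested.

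Mt-Co1, the message for a catalytic subunit of complex IV, was called in the interaction at -0.66 (SE 0.05, adjusted p = 0.00024), with lower values in all stressed libraries (971 to 1058 CPM) than in normal ones (2443 to 3687 CPM). It was listed at the identical 3687 CPM in the 3 KO-labelled normal libraries, since the deposited values give genes of equal rank equal values, which can make its spread appear smaller than it is. Mt-Cytb fell by 1.10 in WT-labelled HSCs between conditions (log2, SE 0.04) and by 1.09 in KO-labelled HSCs (SE 0.04).

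**Figure D5:**
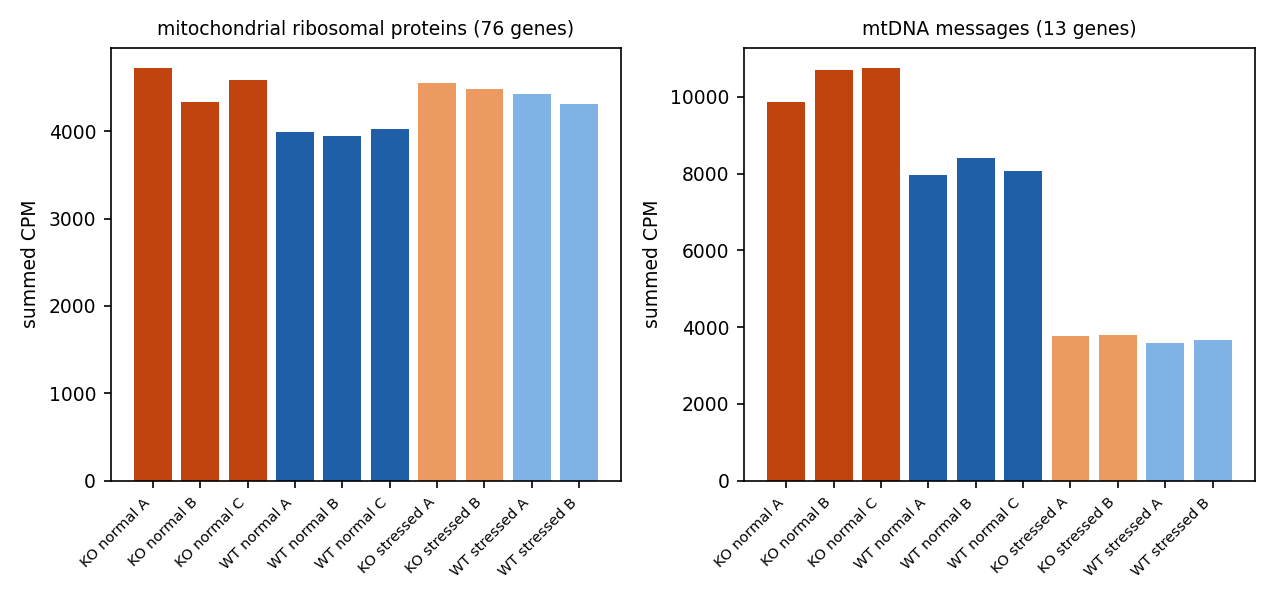
Summed CPM (vertical axes, both from 0) of the 76 nuclear genes for mitochondrial ribosomal proteins (left) and of the 13 messages encoded by mtDNA (right) in each of the 10 libraries, coloured by group. The nuclear genes lie between 3939 and 4719 CPM in all libraries, whereas the mtDNA messages are at 7959 to 10741 CPM in normal and 3585 to 3802 CPM in stressed libraries.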

How the data were processed

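Per the submitters' processing notes, Bowtie2, featureCounts and the mm10 build were used (no versions stated). The authors deposited log2 CPM of 20270 genes in 10 HSC libraries. All libraries share nearly the same distribution, with a common lowest value of -5.90, so the values had been quantile normalized, which can shrink the spread of abundant genes. Depth was estimated from the steps between low values (10 to 100 reads), which after this normalization do not give each library's own depth or counts.

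Only genes above 0 in 2 or more libraries entered the fit. limma 3.58.1 (R 4.3.3) estimated 4 group means from all 10 libraries together (eBayes with trend, 6 residual degrees of freedom), with Benjamini-Hochberg adjustment over the 15143 genes tested and a threshold of 0.05. The model was also run on simulated independent values with shifts larger than those of the members, so its outcome does not bear on differences of their size. GENCODE vM21 held 20199 of the gene identifiers, and exonic and coding lengths and coordinates come from it. Promoter windows are RefSeq's.

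The members are all genes that match the symbol pattern, and no member was chosen by its values. The pattern and the gene lists were set with earlier results of these data known. Named are called members, otherwise the 4 with the smallest p per comparison, the extremes of level per kilobase and of spread, members whose roles differ from their names, and, per further list, up to 3 genes with the smallest p. Mrpl14, Mrpl35, Mrpl58 and others listed beside a count were added after their values were seen. Alternatives covered variance moderation, filters, scaling, pseudocount, library weights, length, a replicate block, the threshold, the libraries fitted, leaving out each library, and, chosen after seeing the data, leaving out members that share exons with other genes and lengths over all transcripts.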

Additional observations from a re-analysis of the deposited data

How the results depend on the processing

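Leaving out each library in turn, the median difference of the 76 genes stayed between 0.16 and 0.23 for genotypes in normal HSCs and between -0.16 and -0.11 for the interaction. Removal of the length trend moved 3 medians by more than their spread between libraries: to 0.10 for genotypes in normal HSCs, to 0.053 between conditions in WT-labelled HSCs and to -0.042 for the interaction. Between conditions in WT-labelled HSCs, 0 members were called without a trend in the variance (1.69% of all genes in that fit) and without the filter (2.07%). The number was also 0 with the length trend removed (2.79%), with a replicate block (1.91%) and with only the libraries of the groups compared (2.18%). It was 0 to 1 when 1 normal library was left out (1.68% to 4.11%). At an adjusted p under 0.10 it was 2 (5.76%), and 4 members were called between genotypes in normal HSCs (2.64%). The labels do not say whether the letters A, B and C pair libraries. Correlations of same-letter deviations over the genes tested ran from -0.02 to 0.04. Between the 2 normal groups, with 3 libraries each, they were -0.02 for A and -0.01 for B and C. In groups of 2 libraries the deviations of A and B mirror each other, so those of A and B are not separate values. Whether the letters pair libraries is not known from these correlations. With the replicate block, limma called 181 rather than 236 genes between genotypes in normal HSCs, 11 rather than 22 in stressed HSCs, 289 rather than 500 and 447 rather than 682 between conditions in WT-labelled and KO-labelled HSCs, and 2 rather than 3 in the interaction.

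Targeted gene Id1 differed in normal HSCs by 2.50 without the variance trend (adjusted p = 0.11), 2.36 with the length trend removed (adjusted p = 0.051), and 2.24 to 2.86 when 1 library was left out, where 4 of 10 fits were no longer past the threshold. Small differences changed sign for some genes. With the length trend removed, Mrps12 (-0.010), Mrps18a (-0.15) and Mrps18b (-0.072) did so between genotypes in normal HSCs. With 1 library left out, Mrps18a ranged from -0.057 to 0.055 and Mrps30 from -0.014 to 0.18 in that comparison. Between conditions, Mrps12 ranged from -0.10 to 0.052 in WT-labelled HSCs and 1110008L16Rik from -0.0020 to 0.54 in KO-labelled HSCs. Ppargc1a ranged from -0.50 to 7.90 between genotypes in stressed HSCs. It was at 0.017 CPM in the WT-labelled stressed library A and at 5.61 CPM in library B. The cause of these changes was not tested. The reads behind each member in a library cannot be recovered from the deposited values, and the 2 or 3 libraries per group limit the precision.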
